A study of Mus musculus with 10 samples.

Results

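The BCL2 family decides whether a stressed cell opens its mitochondrial outer membrane and dies by apoptosis. The 10 genes described here are 3 anti-apoptotic members (Bcl2, Bcl2l1 and Mcl1), 3 multidomain members grouped here as effectors (Bax, Bak1 and Bok) and 4 BH3-only members (Bid, Bcl2l11, Bad and Bik). They were taken by symbol, after the accession of each array probe had been matched to the RefSeq gene table, and all 10 were found among the 21613 named genes on the array, with 14 probes between them. All 10 had a probe above background and were among the 14531 named genes tested. The members were not picked by a measured cut-off, but they were chosen with earlier results of these data known.

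The samples were livers of 10 male mice of the TG221 strain on a B6D2F2 background, which carry a miR-221 transgene. From 4 to 6 weeks of age every mouse was gavaged with 20% (v/v) carbon tetrachloride (CCl4) in olive oil 3 times a week for 14 weeks, and livers were frozen at 24 weeks. CCl4 is a liver toxin that kills hepatocytes and leads to scarring when given repeatedly. In the metformin plus CCl4 group (6 mice), oral metformin (300 mg/kg), a biguanide drug for type 2 diabetes, was added daily starting 3 weeks into the CCl4 course. The CCl4 group (4 mice) had the toxin alone. All mice share the transgene and the injury, so nothing here compares injured with uninjured liver or transgenic with wild-type mice. The promoter that drives the transgene is not given in the sources used here, and the labels give the tissue as liver and the cell type as hepatocellular carcinoma without saying how tumour and surrounding tissue were divided.

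In healthy cells the anti-apoptotic proteins hold BAX and BAK1 in check at the mitochondrial outer membrane. BH3-only proteins sense stress and either occupy the anti-apoptotic proteins or activate BAX and BAK1, which then form pores that release cytochrome c and switch on caspases. Hepatocytes are known to depend on Bcl2l1 (BCL-XL) and Mcl1 for survival, and death receptor signals in hepatocytes pass through Bid. Much of this control acts on the proteins, by cleavage, phosphorylation or degradation, and RNA levels do not measure it. miR-221, the microRNA that all these mice overexpress, has been reported to act on the BH3-only genes Bmf and Bbc3.

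The mature miR-221-3p is shown because it defines the model, beside miR-222-3p, its neighbour on the X chromosome. The sequences are from RefSeq (GRCm38.p6, minus strand), written 5′ to 3′, and the capitals mark the seed, bases 2 to 8, which the pair share. The array held no probe named for either microRNA, so the transgene itself was not measured here.
miR-221-3p, chrX:19146307-19146329: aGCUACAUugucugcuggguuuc
miR-222-3p, chrX:19146901-19146923: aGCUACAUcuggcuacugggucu

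The 3 members whose RNA was higher with metformin in the main comparison, Mcl1, Bax and Bid, are shown next by their promoter windows. All 3 missed the threshold when arrays were scaled to spiked-in transcripts, and a second Mcl1 probe showed no rise. The windows run from 250 bases before to 50 bases after the start site in RefSeq (GRCm38.p6). The capitals mark matches, on either strand, to CACGTG (the E-box bound by MYC and by the clock factors CLOCK and ARNTL) and to GGGCGG (the GC box bound by SP1).
Mcl1, chr3:95658471-95658770, plus strand: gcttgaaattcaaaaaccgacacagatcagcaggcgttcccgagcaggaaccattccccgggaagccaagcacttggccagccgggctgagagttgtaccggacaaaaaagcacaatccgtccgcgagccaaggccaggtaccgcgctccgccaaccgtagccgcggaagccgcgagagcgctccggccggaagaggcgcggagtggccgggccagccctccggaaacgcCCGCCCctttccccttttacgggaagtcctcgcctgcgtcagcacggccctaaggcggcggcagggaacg
Bax, chr7:45466849-45467148, minus strand: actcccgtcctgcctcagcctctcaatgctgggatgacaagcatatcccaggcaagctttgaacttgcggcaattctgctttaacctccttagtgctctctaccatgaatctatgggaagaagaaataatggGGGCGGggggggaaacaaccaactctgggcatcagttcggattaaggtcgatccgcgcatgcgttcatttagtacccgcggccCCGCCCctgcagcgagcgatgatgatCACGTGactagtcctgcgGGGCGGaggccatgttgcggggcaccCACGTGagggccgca
Bid, chr6:120916775-120917074, minus strand: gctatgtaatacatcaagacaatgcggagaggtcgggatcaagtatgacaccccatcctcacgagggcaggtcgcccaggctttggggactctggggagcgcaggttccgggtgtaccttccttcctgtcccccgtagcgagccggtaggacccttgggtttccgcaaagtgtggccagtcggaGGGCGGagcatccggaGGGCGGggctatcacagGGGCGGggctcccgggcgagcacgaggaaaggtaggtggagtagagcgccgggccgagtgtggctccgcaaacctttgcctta

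The Bax window held 2 E-box and 3 GC box matches, the Bid window 3 GC box matches and the Mcl1 window 1. Of 32851 promoter windows of this length, 7.15% held an E-box and 35.7% a GC box. Among 13 windows found for 9 of the members, 1 held an E-box (Bax) and 8 a GC box, the latter from 7 members. A p53 half-site, searched on either strand as a 10-base pattern with alternative letters at most positions, was matched in 1 member window (Bax). It was matched in 8.36% of all windows. CCAAT (on either strand) was matched in 3 member windows from 2 members (Bcl2l11 and Bad) and in 37.4% of all windows. TGACGTCA, the cAMP response element, and TATAAA, the TATA box, were matched in 0 member windows, against 1.79% and 13.6% of all windows. These matches describe the letters of the windows and no binding was measured.

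Gene expression was read on 1-colour Agilent arrays, 1 per mouse. The level of a gene is given below as the log2 of its processed spot intensity minus the log2 of the array's 75th percentile, so a level of 0 is the intensity that 75% of the spots did not exceed. The 75th percentile itself ran from 237 to 363 intensity units, between 51.2% and 54.9% of probes were well above background, and 0 non-control spots were saturated on any array. A gene with several probes is represented by its brightest one, and levels of different genes cannot be compared because probes differ in brightness. A log2 fold change is the mean level with metformin plus CCl4 minus the mean level with CCl4 alone, tested with limma over all 22184 features and called at a Benjamini-Hochberg adjusted p below 0.05. The 10 hepatocyte markers checked, among them Alb, Ttr and Hnf4a, were above background on all 10 arrays. Of these, 3 were called lower with metformin, Tat at -1.36, Cps1 at -0.75 and Apoa1 at -0.43, and the summed marker level ran from 12.48 to 12.84 with metformin and from 12.74 to 13.09 with CCl4 alone. Of 8 neutrophil markers 4 were called lower and 1 higher (summed level 7.18 to 7.47 against 6.91 to 7.48). That sum is mostly the bright probe of Csf3r, the marker called higher (mean level 7.13 against 6.69). The 4 lower ones, S100a8, S100a9, Ngp and Retnlg, were at -1.41, -1.41, -1.82 and -1.89. Of 8 macrophage and monocyte markers 3 were called lower (5.65 to 6.49 against 6.21 to 6.53) and of 7 endothelial markers 2 lower (5.49 to 6.26 against 5.90 to 6.19). Over all named genes 19.7% were called lower and 27.7% higher. The part of these cells in the members' differences was not tested. In bulk liver, fewer cells of a type and less RNA per cell cannot be told apart. All metformin mice were hybridised on 1 slide and all CCl4 mice on another, so slide and treatment cannot be told apart.

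Metformin-treated livers differed in 6 of the 10 members. RNA of the effector Bax, the BH3-only gene Bid and the anti-apoptotic gene Mcl1 was higher, by 1.74-, 1.58- and 1.85-fold. RNA of the anti-apoptotic genes Bcl2l1 and Bcl2 and the BH3-only gene Bcl2l11 (BIM) was lower, by 2.58-, 1.27- and 2.17-fold. Each functional class therefore held a member that was higher, and the anti-apoptotic and BH3-only classes each held a member that was lower. The share of members called has to be read against the whole array, where 47.4% of named genes were called, 27.7% higher and 19.7% lower. The members' median log2 fold change was 0.10, equal to that of all tested features (0.10). When arrays were scaled to spiked-in transcripts in place of the 75th percentile, the median of all features moved to -0.52, and 5 members were called, all lower: Bcl2, Bcl2l1, Bcl2l11, Bak1 and Bok, while Mcl1, Bax and Bid had lost their calls at 0.27, 0.18 and 0.04 (adjusted p = 0.300, 0.432 and 0.885 in limma). Over all named genes the share of calls that were higher moved from 58.5% to 5.79% with that scaling. Of the 14531 named genes, 7893 were called with spike-in scaling, 457 higher and 7436 lower. The directions given for single members are therefore relative to the 75th percentile.

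**Figure D1:**
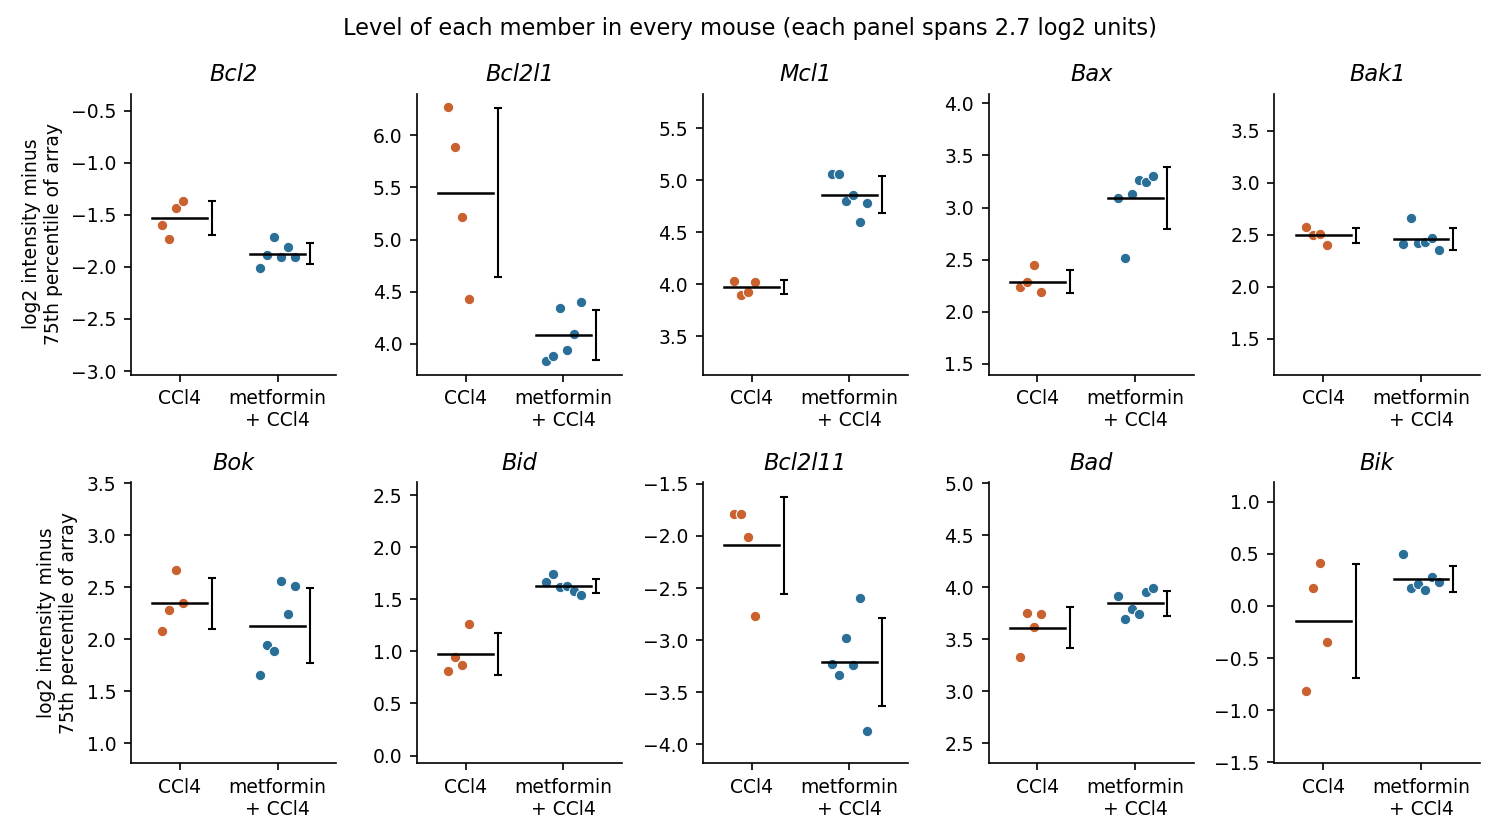
Level of each of the 10 members in every mouse, as log2 intensity minus the array's 75th percentile (vertical axis), for the 4 CCl4 and 6 metformin plus CCl4 mice. Points are mice, horizontal lines are means and bars are 1 SD; every panel spans the same number of log2 units. The 6 metformin points lie wholly above the CCl4 points for Mcl1, Bax and Bid and wholly below them for Bcl2l1 with this scaling, and spike-in scaling moves every metformin level down relative to CCl4.

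Groups did not overlap in 4 members (Mcl1, Bax, Bid and Bcl2l1), against 35.9% of named genes. For the 3 that were higher the background was 21.8%, and for Bcl2l1, which was lower, 14.1%. The plot of levels by mouse shows these 4 gaps beside the overlapping groups of the other 6 members.

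Bcl2l1 encodes BCL-XL, the anti-apoptotic protein that guards the mitochondria of hepatocytes and of several blood cells. Its level was 6.28, 5.88, 5.21 and 4.43 in CCl4 mice 1 to 4, and with metformin it ranged from 3.83 to 4.40 with a median of 4.02. All 6 metformin mice lay below all 4 CCl4 mice, but the gap to CCl4 mouse 4 was narrow and CCl4 mice 1 and 2 were far above it. The log2 fold change was -1.37 ± 0.31 (SE, n = 6 and 4, adjusted p = 0.00477 in limma). The SD over the CCl4 mice was 0.81, larger than in 97.2% of tested features (median 0.22), whereas the SD over the metformin mice was 0.24, close to the median of all features (0.23). A second probe, annotated to another Bcl2l1 transcript, gave a log2 fold change of -2.21 ± 0.36 (adjusted p = 8.18e-04 in limma). That probe read 1.54, 0.95, -0.33 and -0.44 in CCl4 mice 1 to 4 and -2.17 to -1.43 with metformin. CCl4 mice 1 and 2 were thus the highest by both probes. Using the second probe is a setting chosen after seeing the data. With the arrays of slide row 1 alone, which leaves 2 metformin mice, the Bcl2l1 call was lost (-1.59, adjusted p = 0.0556 in limma); over the other settings tried its adjusted p ran from 3.97e-05 to 0.0349.

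Erythroid cells also use Bcl2l1, and markers of these cells were lower with metformin. The summed intensity of 4 measured erythroid markers (Hba-a1, Hbb-bt, Alas2 and Slc4a1), on the same log2 scale, ran from 7.21 to 8.02 with metformin and from 8.29 to 8.98 with CCl4 alone, and 3 of the 4 were called lower. Of all named genes 19.7% were called lower. The part of these cells in the Bcl2l1 difference was not tested.

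Mcl1 encodes a short-lived anti-apoptotic protein on which hepatocytes also depend. Its level was 4.03, 3.90, 3.93 and 4.02 in CCl4 mice 1 to 4, and with metformin it ranged from 4.60 to 5.06 with a median of 4.83. The CCl4 mice were nearly alike and all metformin mice lay above them. The log2 fold change was 0.89 ± 0.10 (SE, n = 6 and 4, adjusted p = 1.40e-04 in limma). A second, dimmer probe, annotated to the same Mcl1 accession, did not show this. It read 2.39, 2.26, 2.40 and 2.09 in CCl4 mice 1 to 4 and 1.86 to 2.60 with metformin, so the groups overlapped, and its log2 fold change was -0.04 ± 0.15 (adjusted p = 0.834 in limma). Both probes were above background on all 10 arrays. The Mcl1 rise therefore rests on 1 of 2 probes. Which transcripts each probe detects was not tested.

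**Figure D2:**
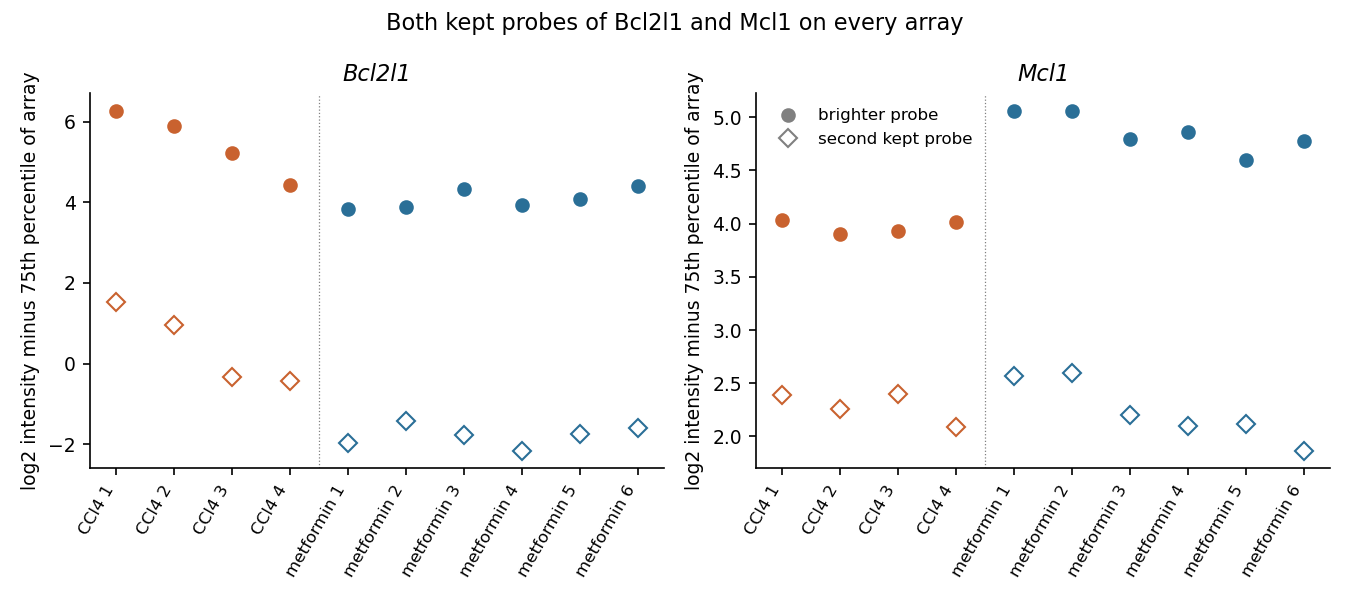
Level of the brighter probe (filled circles) and the second kept probe (open diamonds) of Bcl2l1 and Mcl1 on each of the 10 arrays, as log2 intensity minus the array's 75th percentile; the dotted line separates the 4 CCl4 arrays from the 6 metformin plus CCl4 arrays. Both Bcl2l1 probes are highest in CCl4 mice 1 and 2, while for Mcl1 the brighter probe alone separates the groups.

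Bcl2, the founding anti-apoptotic member, is mostly known from lymphocytes and bile duct cells in liver. Its level was -1.60, -1.73, -1.44 and -1.36 in CCl4 mice 1 to 4, and with metformin it ranged from -2.01 to -1.72 with a median of -1.90. The metformin mice were lower on the whole, but their highest mouse just overlapped the lowest CCl4 mouse. The log2 fold change was -0.34 ± 0.10 (SE, n = 6 and 4, adjusted p = 0.0151 in limma). The call was lost with normexp background correction (-0.19, adjusted p = 0.0794 in limma) and with slide row 1 alone (-0.41, adjusted p = 0.0735 in limma), within a range of 0.00157 to 0.0794 over all settings. Of 7 bile duct markers 4 were called lower and 1 (Cftr) higher, and their summed level ran from 1.15 to 3.41 with metformin and from 2.72 to 3.73 with CCl4 alone, overlapping between groups; among the lower ones Krt7 and Krt19 were at -1.14 and -1.17. Of 5 measured T and NK cell markers 0 were called in limma (0 at an unadjusted p below 0.05 as well), and of 5 B and plasma cell markers 1 was called lower (Mzb1, at -0.78). Of 8 stellate cell and myofibroblast markers 6 were called lower, with summed levels of 6.14 to 6.91 with metformin and 6.76 to 7.27 with CCl4 alone. These counts stand against 19.7% of all named genes called lower and 27.7% higher. The part of these cells in the Bcl2 difference was not tested.

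Among the effectors, Bax encodes the cytosolic protein that moves to mitochondria and forms pores, and it is a known p53 target. Its level was 2.23, 2.29, 2.45 and 2.19 in CCl4 mice 1 to 4, and with metformin it ranged from 2.51 to 3.30 with a median of 3.19. All metformin mice were above all CCl4 mice, and metformin mouse 2, at 2.51, stood apart from the other 5 (3.09 to 3.30) and near the highest CCl4 mouse. The log2 fold change was 0.80 ± 0.15 (SE, n = 6 and 4, adjusted p = 0.00185 in limma), and it was 0.92 without metformin mouse 2. With slide row 1 alone, where metformin mouse 2 is 1 of the 2 metformin mice, it was 0.51 and not called (adjusted p = 0.0829 in limma); the adjusted p ran from 1.45e-04 to 0.432 over all settings. Bax had 1 probe on the array.

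Bak1, the membrane-resident effector that can replace Bax, did not pass the test. It read 2.57, 2.50, 2.50 and 2.40 in CCl4 mice 1 to 4 and 2.36 to 2.66 with metformin, with overlapping groups and a log2 fold change of -0.03 (95% interval -0.22 to 0.15, adjusted p = 0.758 in limma). Its SD of 0.07 over the CCl4 mice and 0.10 over the metformin mice was smaller than in most features. Bok, a less understood relative of Bax and Bak1, read 2.08, 2.28, 2.67 and 2.35 in CCl4 mice 1 to 4 and 1.65 to 2.56 with metformin. Its groups overlapped widely, and its log2 fold change of -0.21 (95% interval -0.64 to 0.22, adjusted p = 0.396 in limma) was not called. With spike-in scaling Bak1 was at -0.65 and Bok at -0.83, both called (adjusted p = 0.00987 and 0.00980 in limma).

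Of the BH3-only genes, Bid links death receptors to the mitochondria, since caspase-8 cleaves its protein into an active form. Its level was 0.81, 0.94, 0.87 and 1.26 in CCl4 mice 1 to 4, and with metformin it ranged from 1.54 to 1.74 with a median of 1.62. The metformin mice were tightly grouped (SD 0.07, smaller than in all but 2.84% of features) and all above the CCl4 mice. The log2 fold change was 0.66 ± 0.10 (SE, n = 6 and 4, adjusted p = 5.05e-04 in limma). The authors' deposited table, which holds quantile-normalized log2 values of probes past their own filter, lists this Bid probe with group means 0.60 apart, the brighter Mcl1 probe with means 0.79 apart, both higher with metformin, and the second Bcl2l1 probe with a difference of -2.24. No other member has a probe in it.

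Bcl2l11 encodes BIM, an activator of BAX and BAK1 that binds all anti-apoptotic members. Its level was -1.79, -1.79, -2.01 and -2.77 in CCl4 mice 1 to 4, and with metformin it ranged from -3.87 to -2.59 with a median of -3.24. The metformin mice were lower, apart from 1 mouse that overlapped CCl4 mouse 4. The log2 fold change was -1.12 ± 0.26 (SE, n = 6 and 4, adjusted p = 0.00529 in limma). The probe is dim, and with normexp correction the difference was -0.52 and stayed called (adjusted p = 0.00674 in limma; range over all settings 8.47e-05 to 0.0327). A second Bcl2l11 probe was above background on 3 of 6 metformin and 1 of 4 CCl4 arrays, was left out of the test, and differed by -0.08 (adjusted p = 0.968 in limma when each of the 55681 probes was tested on its own, where 21.5% were called).

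Bad, whose protein is held inactive by phosphorylation downstream of survival and insulin signals, read 3.33, 3.75, 3.61 and 3.74 in CCl4 mice 1 to 4 and 3.70 to 3.99 with metformin. The groups overlapped and the log2 fold change was 0.24 (95% interval -0.00037 to 0.48, adjusted p = 0.0948 in limma). A second probe gave 0.14 (adjusted p = 0.403 in limma). Bad passed with normexp correction (0.34, adjusted p = 0.00732 in limma) and was at -0.38 with spike-in scaling (adjusted p = 0.123 in limma), within a range of 0.00732 to 0.403. Bik, an endoplasmic reticulum BH3-only protein, read -0.82, 0.17, 0.42 and -0.34 in CCl4 mice 1 to 4 and 0.16 to 0.50 with metformin. Its CCl4 mice were far more spread (SD 0.55) than its metformin mice (SD 0.13), and the log2 fold change of 0.40 (95% interval -0.06 to 0.86, adjusted p = 0.141 in limma) did not pass. Bik passed without CCl4 mouse 3 (0.59, adjusted p = 0.0341 in limma) and was at -0.22 with spike-in scaling (range 0.0341 to 0.533).

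**Figure D3:**
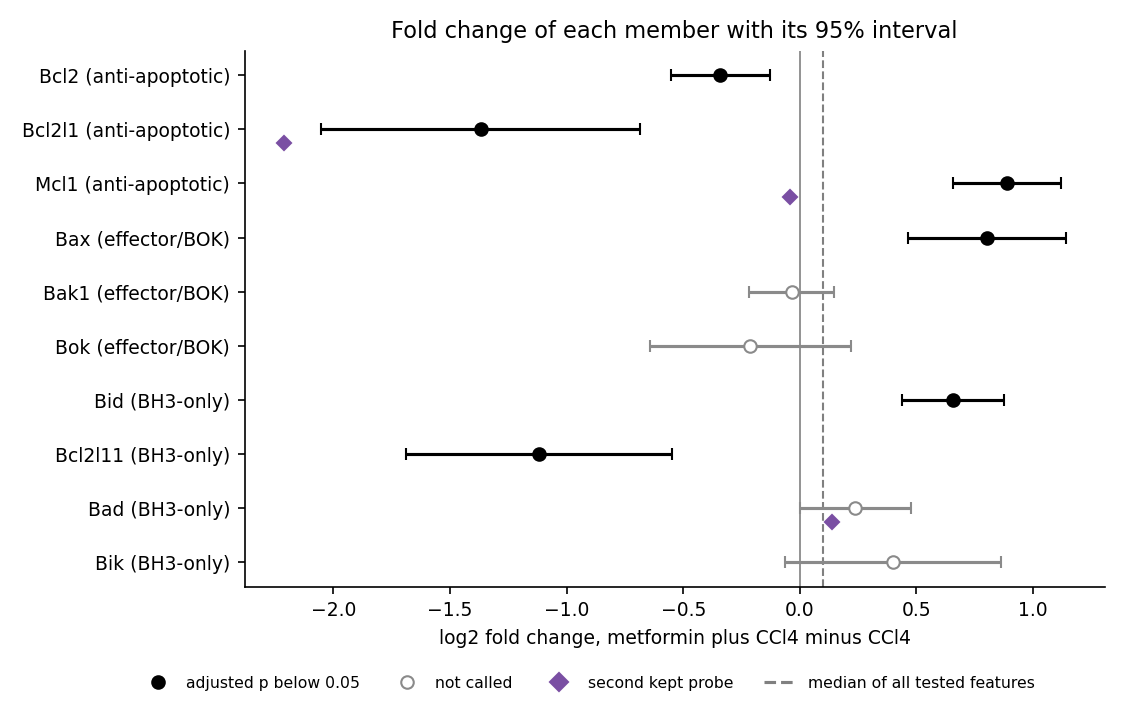
Log2 fold change of each member (horizontal axis, metformin plus CCl4 minus CCl4, n = 6 and 4) with its 95% interval from limma; filled points were called, open points were not, diamonds are second kept probes and the dashed line is the median of all tested features. Bcl2l1 and Bcl2l11 lie farthest to the left and Mcl1, Bax and Bid to the right with this scaling, and the second Mcl1 probe lies near 0.

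Scaling to a percentile, the median or spike-ins subtracts the same value from every level of an array. Differences between members on that array are then unchanged. Quantile normalization and normexp correction can change these differences. With normexp Bax was at 0.79 and Bcl2 at -0.19, against 0.80 and -0.34 as reported. The mean differences below restate the members' log2 fold changes as pairs and are not further evidence. Bax minus Bcl2 was 3.83, 4.02, 3.89 and 3.55 in CCl4 mice 1 to 4 and 4.40 to 5.21 with metformin, so its mean was 1.14 log2 units higher with metformin and the groups did not overlap. Bax minus Bcl2l1 was -4.04, -3.60, -2.76 and -2.24 in CCl4 mice 1 to 4 and -1.37 to -0.67 with metformin, a mean difference of 2.17. Bak1 minus Mcl1, by the brighter Mcl1 probe, was -1.46, -1.40, -1.43 and -1.62 in CCl4 mice 1 to 4 and -2.64 to -2.13 with metformin, a mean difference of -0.92. Bax RNA thus went up relative to Bcl2 and Bcl2l1 RNA, while Bak1 RNA went down relative to Mcl1 RNA as read by that probe. The absolute size of these differences reflects the probes. No test was run on them, since the members were chosen with results known.

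**Figure D4:**
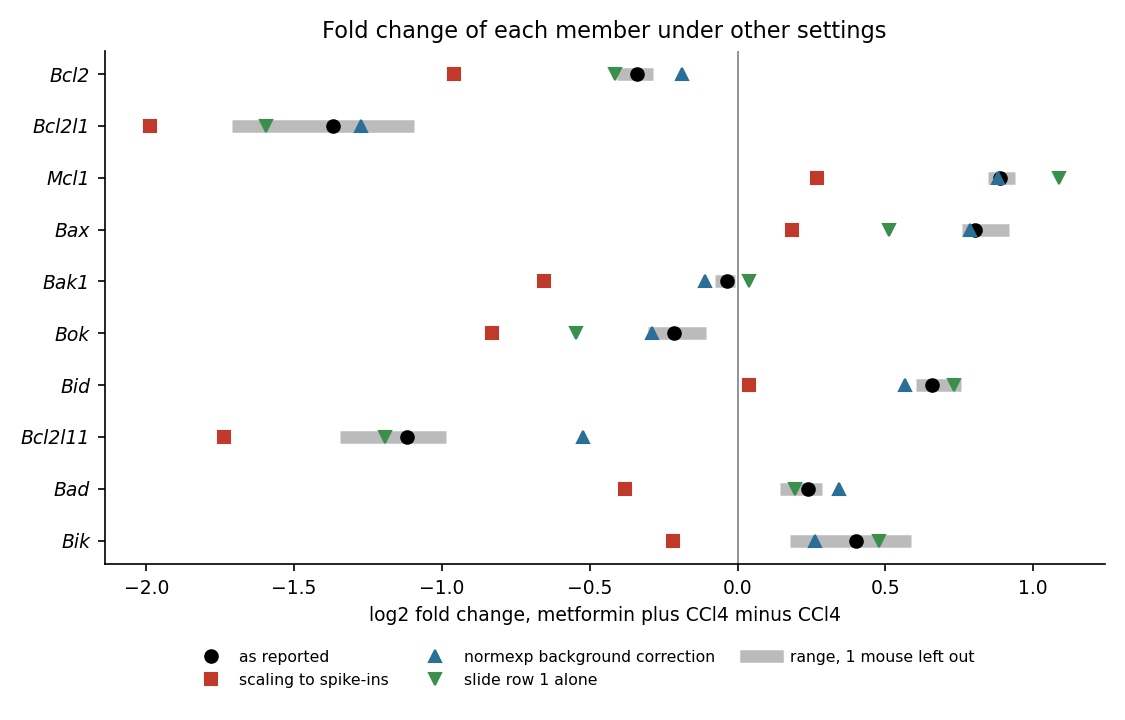
Log2 fold change of each member (horizontal axis) as reported, after scaling to spike-ins, with normexp background correction and with slide row 1 alone; grey bars span the fits with 1 mouse left out. Spike-in scaling shifts every member to the left by about the same amount, which takes Bad and Bik below 0 and leaves Mcl1, Bax and Bid just above it.

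The genes whose profile over the 10 arrays was nearest to each of the 3 called members of largest fold change were found by the root mean square difference of centred log2 levels. For Bcl2l1 these were Itpkc, Gper1 and Rhobtb1, at 0.22, 0.25 and 0.26 log2 units, against a median of 0.89 over named genes. For Bcl2l11 they were Prr15, Gja4 and Slc7a2 (0.15, 0.21 and 0.23, median 0.75), and for Mcl1 0610009L18Rik, Nufip2 and Pigv (0.098, 0.10 and 0.10, median 0.51). The group difference forms part of each profile.

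Other genes of the BCL2 family were counted from a list written for this purpose. Of 15 listed, 11 were tested, of which 5 were called higher (Bcl2l2, Bmf, Bcl2l13, Bcl2l15 and Bnip3) and 1 lower (Pmaip1), with a median log2 fold change of -0.11 against 0.10 over all features. That is 54.5% called, against 47.4% of all named genes. With spike-in scaling 2 were called higher and 6 lower, against 457 higher and 7436 lower of all 14531 named genes. The counts of higher genes include Bcl2l15, which was not well above background on any CCl4 array. Bmf, a BH3-only gene reported as a miR-221 target, ranged from -1.15 to -0.14 with a median of -0.89 in CCl4 mice and from -0.01 to 0.41 with a median of 0.23 with metformin. All metformin mice were above all CCl4 mice, and the log2 fold change was 0.97 ± 0.19 (adjusted p = 0.00231 in limma), falling to 0.35 and uncalled with spike-in scaling (adjusted p = 0.286 in limma; with slide row 1 alone 0.0501). Bbc3 (PUMA), a BH3-only target of p53 also reported as a miR-221 target, ranged from 1.97 to 3.73 in CCl4 mice and from 1.78 to 3.11 with metformin, and its difference of -0.64 ± 0.34 missed the threshold (limma, adjusted p = 0.153; called lower with spike-in scaling, at -1.26). Pmaip1 (NOXA), the BH3-only p53 target whose protein binds MCL1, was lower at -0.69 ± 0.21 (adjusted p = 0.0202 in limma), with just overlapping groups, and was not called with normexp correction (-0.29, adjusted p = 0.0763 in limma).

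Of 3 mitophagy receptors on the list, Bnip3 and Bcl2l13 were called and Bnip3l was not (-0.25, adjusted p = 0.0541 in limma; called lower with spike-in scaling, at -0.87), and the other Bnip3l probes were at 0.10, 0.21 and -0.49. Bnip3, which marks mitochondria for removal, was higher at 1.10 ± 0.15 (adjusted p = 2.61e-04 in limma), and its other 2 kept probes differed by 0.89 and 0.68; with spike-in scaling it was at 0.49 and not called (adjusted p = 0.0894 in limma). Bcl2l13, another mitochondrial receptor with BH domains, was higher at 1.11 ± 0.09 (adjusted p = 2.94e-05 in limma) and stayed called with spike-in scaling (0.49, adjusted p = 0.0383 in limma). Bcl2l15 was well above background on 6 of 6 metformin and 0 of 4 CCl4 arrays, so it entered the test through the metformin arrays alone. With the scaling as reported it was at least 3.05-fold higher. Its call (adjusted p = 2.15e-04 in limma) is for a log2 difference of 2.40 that uses the dim CCl4 values, and it does not test that bound. With spike-in scaling the difference was 1.78, which would lower the bound as well. Bcl2l2 (BCL-W), an anti-apoptotic relative of Bcl2l1, was at 0.55 and at -0.07 with spike-in scaling. Bcl2l10 and Hrk stayed at background level on all 10 arrays.

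Of 16 genes of the mitochondrial arm 7 were called higher (Casp9, Xiap, Aifm1, Dffa, Casp6, Cycs and Htra2) and 1 lower (Birc2), with a median of 0.21. The share called, 50%, was near the 47.4% of all named genes. With spike-in scaling 0 were called higher (0 at an unadjusted p below 0.05) and 6 lower in limma. Of all 14531 named genes, 457 were higher and 7436 lower with that scaling. Casp9, the caspase activated on the apoptosome, was at 0.81 ± 0.11 and its inhibitor Xiap at 0.75 ± 0.11 (adjusted p = 3.22e-04 and 5.27e-04 in limma). The apoptosome scaffold Apaf1 (-0.31, adjusted p = 0.448 in limma) missed the threshold. With spike-in scaling none of these 7 genes was called higher: Casp9 was at 0.19 and Xiap at 0.13 (adjusted p = 0.472 and 0.623 in limma). Of the others, Aifm1, Dffa, Casp6, Cycs and Htra2 were below 0, at -0.02, -0.04, -0.10, -0.29 and -0.37. The Htra2 call was also lost with quantile normalization and without CCl4 mouse 1 (adjusted p = 0.147 and 0.129 in limma). It was lost as well with median scaling and normexp correction (adjusted p = 0.0562 and 0.189 in limma), and another Htra2 probe was at -0.39. The calls of Birc2 and Dffa were lost without CCl4 mouse 3 (adjusted p = 0.0953 and 0.0506 in limma). That of Cycs was lost with quantile normalization (adjusted p = 0.0729 in limma).

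In the death receptor arm, 9 of 10 listed genes were tested, 2 were called higher and 2 lower, and the median was -0.09. The share called, 44.4%, was near the 47.4% of all named genes. With spike-in scaling 0 were called higher (0 at an unadjusted p below 0.05) and 5 lower in limma. Of all 14531 named genes, 457 were higher and 7436 lower with that scaling. The ligand Tnfsf10 (TRAIL) was higher at 1.04 ± 0.19 (adjusted p = 0.00145 in limma) and the adaptor Tradd at 0.59. With spike-in scaling they were at 0.42 and -0.03, and neither was called (adjusted p = 0.221 and 0.906 in limma). Casp8, the caspase that cleaves BID, was lower at -0.55 ± 0.14 (adjusted p = 0.00887 in limma). Its inhibitor Cflar was called lower by its brightest probe (-0.44), but 2 further kept probes were at 0.98 and 0.57. The Cflar probe at 0.98 is in the authors' table, with a difference of 0.94. The direction of Cflar thus depends on the probe. For the receptor Fas the difference of -0.11 missed the threshold (limma, adjusted p = 0.470). The receptor Tnfrsf1a was not called by its brightest probe (-0.14, adjusted p = 0.371 in limma). Another Tnfrsf1a probe was at -0.69 (adjusted p = 0.00485 in limma with each probe tested on its own). The authors' table lists that probe, with a difference of -0.80.

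Among 13 tested regulators and partners of the family, 4 were called higher (Vdac1, Vdac2, Vdac3 and Mtch2) and 4 lower (Trp53, Ywhaz, Mul1 and Usp9x), with a median of -0.00. That is 61.5% called, against 47.4% of all named genes. With spike-in scaling 0 were called higher (0 at an unadjusted p below 0.05) and 8 lower in limma. Of all 14531 named genes, 457 were higher and 7436 lower with that scaling. Trp53, which encodes the p53 protein that activates Bax, Bbc3 and Pmaip1, was lower at -0.83 ± 0.20 (adjusted p = 0.00660 in limma), with groups apart, from -1.83 to -1.03 with metformin and from -0.71 to 0.00 with CCl4 alone. Usp9x, a deubiquitinase that stabilises MCL1 protein, was lower at -1.22 ± 0.11 (adjusted p = 3.43e-05 in limma). Ywhaz, a 14-3-3 protein that holds phosphorylated BAD in the cytosol, was lower at -1.86 ± 0.15 (adjusted p = 2.80e-05 in limma), by -1.28 with a second probe, while another probe was at 0.01. The outer membrane channels Vdac1, Vdac2 and Vdac3 were at 0.47, 0.55 and 0.42, and at -0.15, -0.07 and -0.19 with spike-in scaling. Mtch2, the mitochondrial receptor of cleaved BID, was at 0.28, and at -0.34 with spike-in scaling. Mtch2 was not called with quantile normalization (adjusted p = 0.175 in limma), and another Mtch2 probe was at -0.48. With slide row 1 alone, calls were lost for Bmf and Pmaip1 of the family, Birc2, Cycs, Dffa and Htra2 of the mitochondrial arm, Casp8 and Cflar of the death receptor arm, and Trp53, Mul1, Vdac1, Vdac3 and Mtch2 of the regulators, with adjusted p from 0.0501 (Bmf) to 0.465 (Birc2) in limma.

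**Figure D5:**
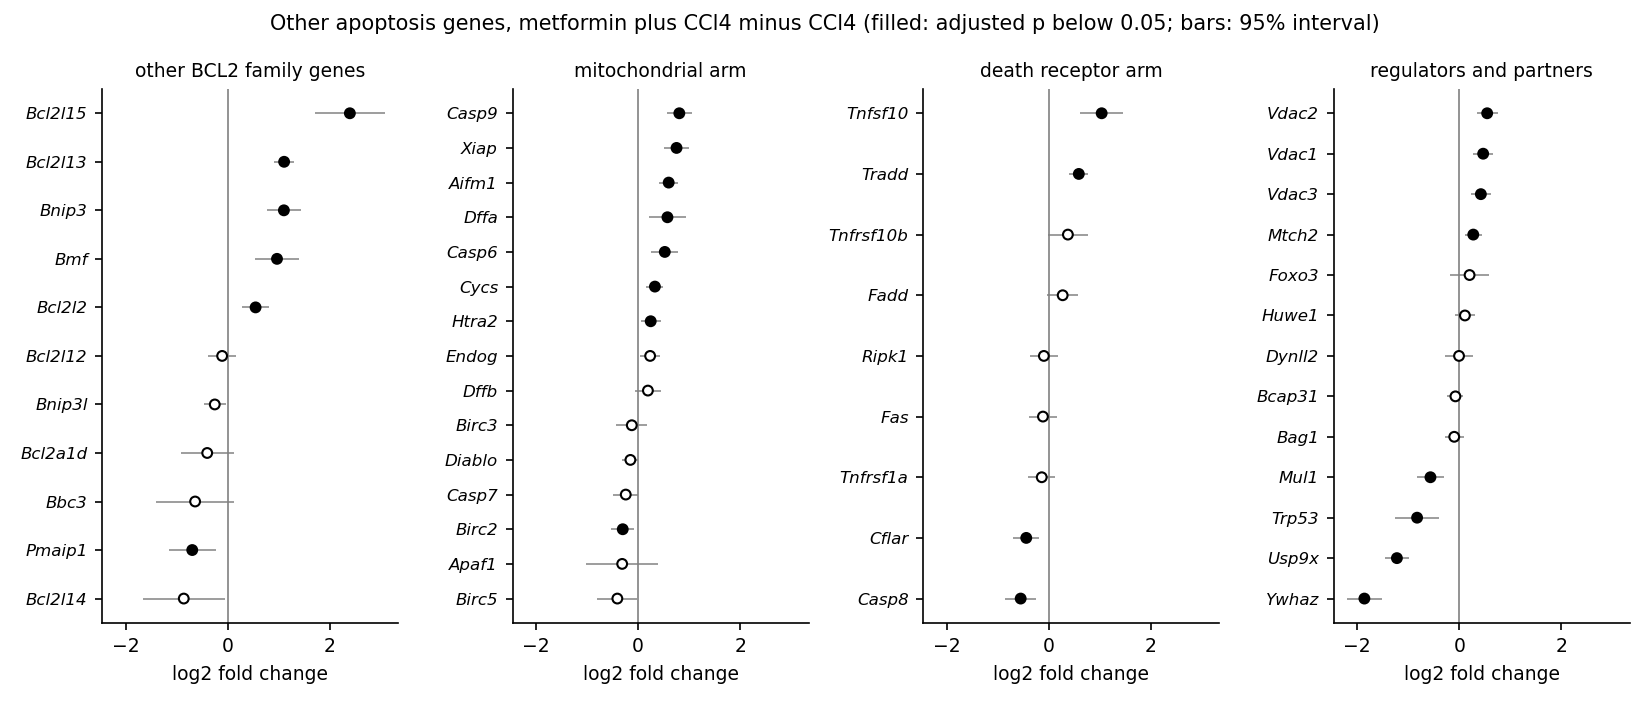
Log2 fold change (horizontal axes, metformin plus CCl4 minus CCl4, n = 6 and 4) of tested genes of the 4 pathway lists (all but 1 of the mitochondrial arm), 1 gene per row, with 95% intervals from limma; filled points were called. Genes on each side of 0 appear in every list, and with spike-in scaling 11 of the called genes, all of them higher here, fall below 0.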

How the data were processed

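The authors deposited 1 scanner file per mouse holding linear spot intensities, from Agilent Feature Extraction 10.7.3.1 and a grid of build mm9, per the file headers. The processed intensity was already background-subtracted and detrended by that software and was not normalized between arrays. The RNA integrity number exceeded 8, per the labels' protocols. A further table the authors deposited gives log2, quantile-normalized values for 4595 probes that passed their filter (FDR and fold change, test not stated), per its first line; its columns followed the log2 intensities of their own arrays (r 0.9997 to 1.00 across probes), with medians of 7.76 to 7.88, and any further centring is unknown.

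Here each array's log2 processed intensities were set relative to their 75th percentile, taken over its 59305 spots that are not controls. Between 135 and 179 flagged spots per array were left out, and spots of a probe were averaged. The 29575 probes tested further had to be well above background on 75% or more of 1 group's arrays. Accessions were matched without versions to RefSeq (GRCm38.p6), which named 28664 of 55681 probes. The brightest kept probe stood for a gene. Groups were compared with limma 3.58.1 in R 4.3.3 (lmFit, eBayes, two-sided, no covariate), with Benjamini-Hochberg adjustment over 22184 features, and the fit was tested on simulated data. The scanner files hold no mean intensity, so normexp (offset 50) used the median. Spike-in scaling used 7 E1A probes. Figures were drawn with matplotlib 3.10.9.

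The members and gene lists were chosen with earlier results of these data known. Named were all members, pathway genes called with groups apart (the 8 of largest change), Bbc3, Pmaip1 and Bmf, and the nearest profiles. Casp9, Xiap, Apaf1, Fas, Tnfrsf1a, Bcl2l2 and the genes named to complete counts (such as Cftr, Csf3r and Mzb1) fall outside that rule. They were named after their values were seen. The values of 1 listed gene, which stays in the counts, are not reported here. The titles number separate mice. The p-values set the group difference against the spread between mice of a group. Each group was on its own slide, so that spread leaves out variation between slides. Precision is limited by having 6 and 4 arrays.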

Additional observations from a re-analysis of the deposited data

Results flagged for a closer look

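Each member's levels were scanned for a single mouse far from the rest of its group, in 20 combinations of gene and group, and chance alone marks about 1 in 20 groups. There were 2 such values. Bax in metformin mouse 2 was 2.51, against 3.09 in the nearest and 3.30 in the farthest of the other 5 metformin mice. Bik in metformin mouse 1 was 0.50, against 0.28 in the nearest and 0.16 in the farthest of the others.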

How the results depend on the processing

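With slide row 1 alone 4215 named genes and 3 members were called, in place of 6883 and 6, and Bcl2, Bcl2l1 and Bax lost their calls at -0.41, -1.59 and 0.51, while Bak1 changed sign to 0.040 there and with slide row as a covariate (0.040). With spike-in scaling Mcl1, Bax and Bid lost their calls at 0.27, 0.18 and 0.039, Bak1 and Bok gained one at -0.65 and -0.83, and Bad and Bik changed sign to -0.38 and -0.22. With normexp Bcl2 lost its call (-0.19) and Bad gained one (0.34). The second Mcl1 probe, a choice made after seeing the data, reversed its sign (-0.044). Samples of different mice share only a number: deviations of same-numbered mice correlated at -0.14, -0.12, 0.085 and -0.0034, and 1 of 4 metformin and 0 of 4 CCl4 mice were closest to their own number; with the replicate block (mice 1 to 4 of each group) 4678 named genes and 5 members were called, and Bcl2 lost its call (-0.35, adjusted p = 0.0738 in limma). Leaving out 1 mouse gave 5870 to 6641 named genes and 6 or 7 members called; log2 fold changes ran from -0.41 to -0.28 for Bcl2, -1.71 to -1.09 for Bcl2l1, 0.85 to 0.94 for Mcl1, 0.76 to 0.92 for Bax, -0.075 to -0.0090 for Bak1, -0.30 to -0.11 for Bok, 0.60 to 0.75 for Bid, -1.35 to -0.99 for Bcl2l11, 0.15 to 0.28 for Bad and 0.18 to 0.59 for Bik. With normexp Bcl2l11, which was read by a dim probe, went from -1.12 to -0.52 and stayed called.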
